A study of Tachysurus ussuriensis with 12 samples.

Results

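The 141 transcripts described here were lower at 24 h than at 0 h of acute salinity stress in both gill and kidney of the Ussuri catfish (Tachysurus ussuriensis, also named Pseudobagrus ussuriensis), a freshwater bagrid catfish. They were picked out of 84875 assembled transcripts by a rule on their own values. The mean over the 12 libraries had to be an FPKM of 2 or more (FPKM is a count of fragments scaled to transcript length and to the mapped fragments of the library). In each tissue the highest 24 h library had to lie below the lowest 0 h library, and the mean of log2(FPKM + 1) had to be lower at 24 h by 1 or more. The levels at 24 h and 0 h therefore chose these transcripts, and their falls over time are given below as a description. Calls and adjusted p-values of limma on these falls, or on the difference between them, describe the fit and are not read as evidence of a fall. RNA sequencing of total RNA covered 4 groups of 3 libraries, which were gill at 24 h, gill at 0 h, kidney at 24 h and kidney at 0 h. The labels used here state no strain, sex, age or salinity, and do not tell whether each of the 3 libraries stands for another fish. P-values therefore cover only the spread between samples within groups, shared over the 4 groups in the main fit, and that spread may be technical. The labels name no group kept for 24 h without salinity stress, so salinity and elapsed time cannot be told apart.

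In a freshwater fish, gill and kidney together keep ions and water in balance. The gill, with its mitochondria-rich ionocytes, takes up salt from the water and also carries out gas exchange and ammonia excretion, while the kidney reabsorbs filtered ions and excretes dilute urine. When a freshwater fish meets saltier water both organs shift away from salt uptake and water excretion, and the stress hormone cortisol acts on both. The rows carry assembler IDs that the file does not pair with gene names, so no function is given to any of the 141, no sequence is printed, and neither tissue could be set against marker genes. For the same reason only 2 transcripts are given by ID, and the others are called by their rank, with rank 1 for the deepest shared fall (the smaller of the gill and kidney falls on the log2 scale). In whole-tissue RNA, fewer cells of a type and less RNA per cell cannot be told apart.

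The summed FPKM of a library lay between 631998 and 714003, and read totals are unknown. Steps between low values put the sequencing depths of the libraries relative to each other at 0.861 to 1.12. Kidney 0 h replicate 2 stood apart: over the 75716 transcripts tested it correlated with the other kidney libraries at r = 0.816 to 0.838, and its median FPKM was 1.26, against 1.85 to 2.22 in the other 11 libraries. Without it the rule picked 205 transcripts, 140 of the 141 among them. Such a rise was not particular to it: leaving out other single libraries gave 109 to 207, the most without gill 0 h replicate 2.

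Of the 42379 transcripts with a mean FPKM of 2 or more, 863 (2.04%) met the gill condition of the rule and 494 (1.17%) met the kidney condition. The 141 that met both made up 16.3% of the gill list and 28.5% of the kidney list. They were 0.333% of the 42379. With the rule mirrored, 690 (1.63%) were higher at 24 h in gill, 1211 (2.86%) in kidney and 118 (0.278%) in both. With the directions crossed, 11 (0.026%) fell in gill and rose in kidney by the same bounds, and 3 (0.00708%) rose in gill and fell in kidney. With no bound on the size of the change, the 24 h libraries lay below those of 0 h without overlap for 11.3% in gill, 4.4% in kidney and 1.47% in both. All 141 passed the filter for testing, which asked for 1 FPKM or more in 3 or more libraries.

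**Figure D1:**
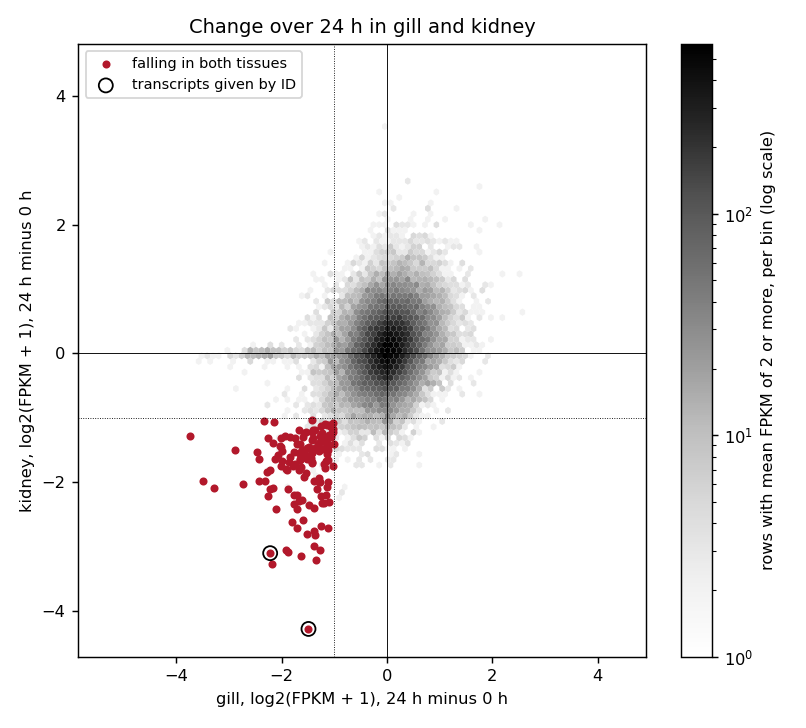
Change over 24 h on the log2(FPKM + 1) scale in gill (horizontal axis) and kidney (vertical axis). Grey hexagons count transcripts with a mean FPKM of 2 or more on a log scale, red points are the 141 transcripts, circles mark the 2 given by ID, and dotted lines mark the bound of -1; the points reach -3.75 in gill and -4.28 in kidney.

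The median falls were of similar size in both tissues on the log2(FPKM + 1) scale, where the same bound chose both. In FPKM, the median share left at 24 h was lower in kidney. On the log2(FPKM + 1) scale the median change of the 141 was -1.51 in gill and -1.64 in kidney, against medians of 0.02 in gill and 0.10 in kidney over all tested transcripts. The order of the tissues depended on single libraries. Without kidney 0 h replicate 1 the median kidney change was -1.31, a smaller fall than the -1.51 in gill. Without gill 0 h replicate 3 the median gill change was -1.33, and the kidney fall stayed the larger. The shares of FPKM left were not recomputed without these libraries. As a share of the 0 h mean, the median FPKM left at 24 h was 29.2% in gill and 21.0% in kidney. Fewer than 25% of the 0 h mean remained for 52 transcripts in gill and for 89 in kidney. A fall of 2 or more on the log2 scale was seen for 27 transcripts in gill, for 39 in kidney and for 8 in both tissues.

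Levels spanned a wide range. The median transcript of the 141 had a group mean of 5.85 FPKM in gill at 24 h and 21.8 FPKM in gill at 0 h, and of 2.59 FPKM in kidney at 24 h and 14.9 FPKM in kidney at 0 h. Over the 12 libraries 6 transcripts averaged 100 FPKM or more, 74 averaged 10 to 100 FPKM and 61 averaged less. Together the 141 held 0.324% to 0.382% of all FPKM in gill libraries of 24 h and 0.717% to 1.73% in those of 0 h. In kidney they held 0.15% to 0.173% at 24 h and 0.545% to 1.28% at 0 h.

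**Figure D2:**
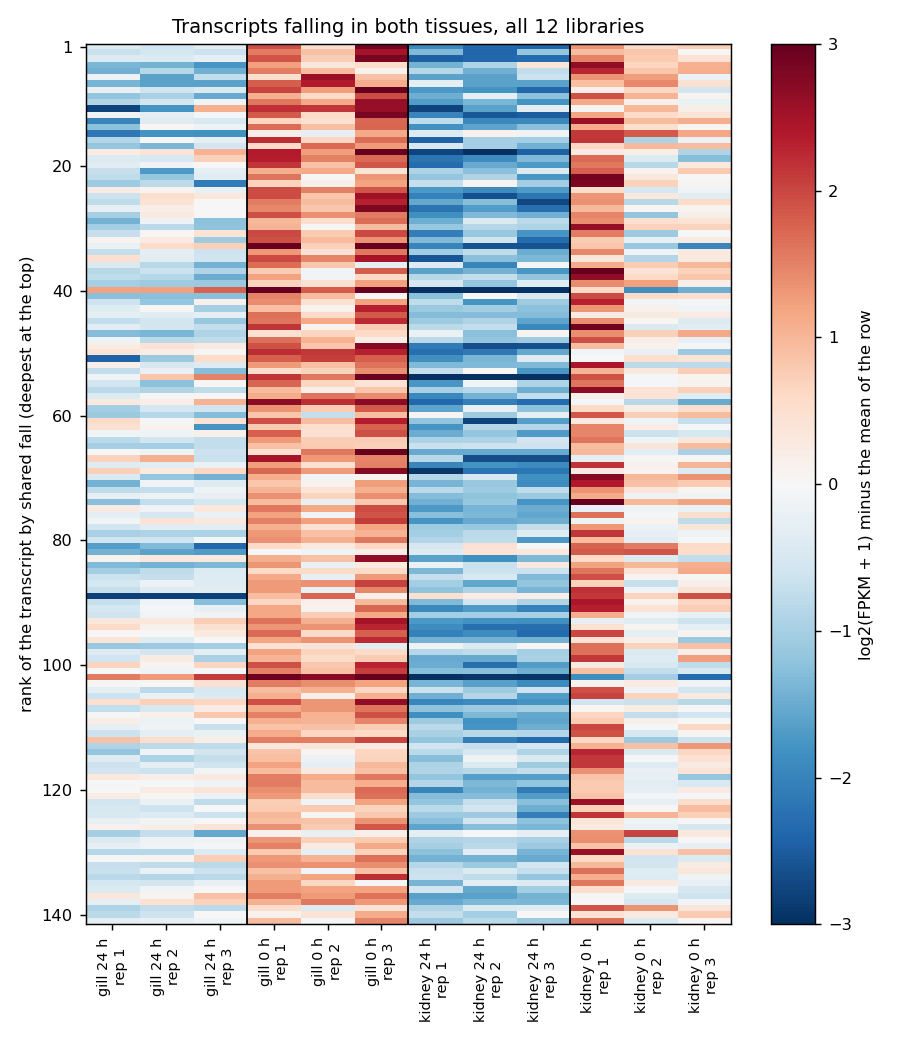
Level of each of the 141 transcripts (rows, by rank of shared fall) in each of the 12 libraries (columns), as log2(FPKM + 1) minus the mean of the row. Both blocks of 24 h libraries are lower than the 0 h libraries of their tissue, and gill 0 h replicate 3 is the highest of its group in 82 rows and kidney 0 h replicate 1 in 122.

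The deepest shared fall was that of TRINITY_DN26563_c1_g1_i1_3, which also had the highest mean of the 141. It had 272, 237 and 281 FPKM in the gill libraries of 24 h, against 1367, 512 and 2627 FPKM in those of 0 h. In kidney it had 94.3, 68.8 and 66.8 FPKM at 24 h, against 906, 541 and 584 FPKM at 0 h. The 24 h libraries lay close together while the 0 h libraries of gill spread widely, and neither tissue showed any overlap. These levels amount to 263.5 ± 23.1 FPKM at 24 h and 1502 ± 1064 FPKM at 0 h in gill, and to 76.6 ± 15.3 and 677 ± 199.6 FPKM in kidney (SD, n = 3 each). The share of the 0 h mean left at 24 h was 17.5% in gill and 11.3% in kidney.

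TRINITY_DN27698_c0_g1_i4_1, with the second highest mean and rank 54 by shared fall, had the steepest kidney fall of the 141. It had 76.5, 147 and 233 FPKM in gill at 24 h, against 368, 246 and 652 FPKM at 0 h. In kidney it had 7.95, 3.30 and 6.83 FPKM at 24 h, against 309, 80.15 and 87.55 FPKM at 0 h. The gill groups nearly touched, with 233 FPKM in the highest 24 h library and 246 FPKM in the lowest 0 h library, whereas all 3 kidney libraries of 24 h were far below every one of 0 h. At 24 h 36.1% of the 0 h mean was left in gill and 3.79% in kidney. Some transcripts of lower level kept a smaller share in kidney, such as rank 99 with 2.49%.

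Rank 2 was an evenly falling transcript of lower level. It had 12.7, 14.0 and 12.9 FPKM in gill at 24 h, against 63.1, 38.8 and 122 FPKM at 0 h. In kidney it had 7.68, 3.18 and 8.70 FPKM at 24 h, against 40.1, 37.5 and 21.2 FPKM at 0 h. Its log2 changes, -2.26 in gill and -2.21 in kidney, were nearly the same. Rank 3 was more abundant, with 67.8, 68.45 and 75.5 FPKM in gill at 24 h, against 336, 153 and 654 FPKM at 0 h. Its kidney libraries had 15.8, 16.95 and 17.45 FPKM at 24 h, against 257, 157.5 and 122 FPKM at 0 h. As in rank 1, gill 0 h replicate 3 was the highest gill library and kidney 0 h replicate 1 the highest kidney library. The log2 changes of ranks 4 to 10 lay between -2.11 and -3.29 in gill and between -1.99 and -2.42 in kidney.

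The other transcripts among the 6 highest means were ranks 9, 94 and 10. Rank 9 had 34.1, 39.4 and 27.1 FPKM in gill at 24 h, against 165, 120 and 307 FPKM at 0 h. In kidney it had 27.9, 65.5 and 33.0 FPKM at 24 h, against 299.9, 160 and 84.0 FPKM at 0 h. Gill and kidney thus stood at like levels, and their difference was not called at either time, at -0.24 at 24 h (SE 0.46; limma adjusted p = 0.75) and 0.20 at 0 h (SE 0.46; limma adjusted p = 0.799). Rank 94 had 109, 80.45 and 103 FPKM in gill at 24 h, against 185, 186.5 and 363 FPKM at 0 h. In kidney it had 19.2, 14.45 and 14.5 FPKM at 24 h, against 100.3, 78.1 and 59.7 FPKM at 0 h. Every gill library exceeded every kidney library of its time, by 2.53 at 24 h (SE 0.27; limma adjusted p = 2.3e-05) and 1.57 at 0 h (SE 0.27; limma adjusted p = 0.000851) in the means. Rank 10 differed between gill and kidney by 1.10 at 24 h (SE 0.39; limma adjusted p = 0.0519) and by 1.42 at 0 h (SE 0.39; limma adjusted p = 0.0161). Rank 8, of lower level, kept 9.81% of its 0 h mean in gill and 11.8% in kidney.

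Some transcripts were listed close to 0 FPKM at 24 h. Levels under 0.01 FPKM were found in all 3 libraries of 24 h for 2 transcripts in gill and 4 in kidney, and in at least 1 such library for 8 in gill and 18 in kidney. Some of these values were not 0 but extremely small, such as 1.659e-97 FPKM for rank 5 in gill 24 h replicate 1. The counter is not given, and whether fragments were assigned to other transcripts was not tested. Such values are therefore not read as loss of the RNA. None of the 141 was under 0.01 FPKM in any 0 h library. The rule favours this, since every 0 h library had to exceed all 24 h libraries of its tissue. Rank 89 was listed at 0 in all 3 gill libraries of 24 h, against 12.4, 22.3 and 6.73 FPKM in gill at 0 h. In kidney it kept 8.82, 7.16 and 6.88 FPKM at 24 h, against 29.6, 10.3 and 25.3 FPKM at 0 h. Rank 7 had 0.147 FPKM in 1 gill library of 24 h and under 0.01 in the other two, against 9.59, 14.75 and 5.39 FPKM at 0 h. Its kidney libraries had 1.465 FPKM in 1 library of 24 h and under 0.01 in the other two, against 4.615, 7.145 and 3.15 FPKM at 0 h.

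**Figure D3:**
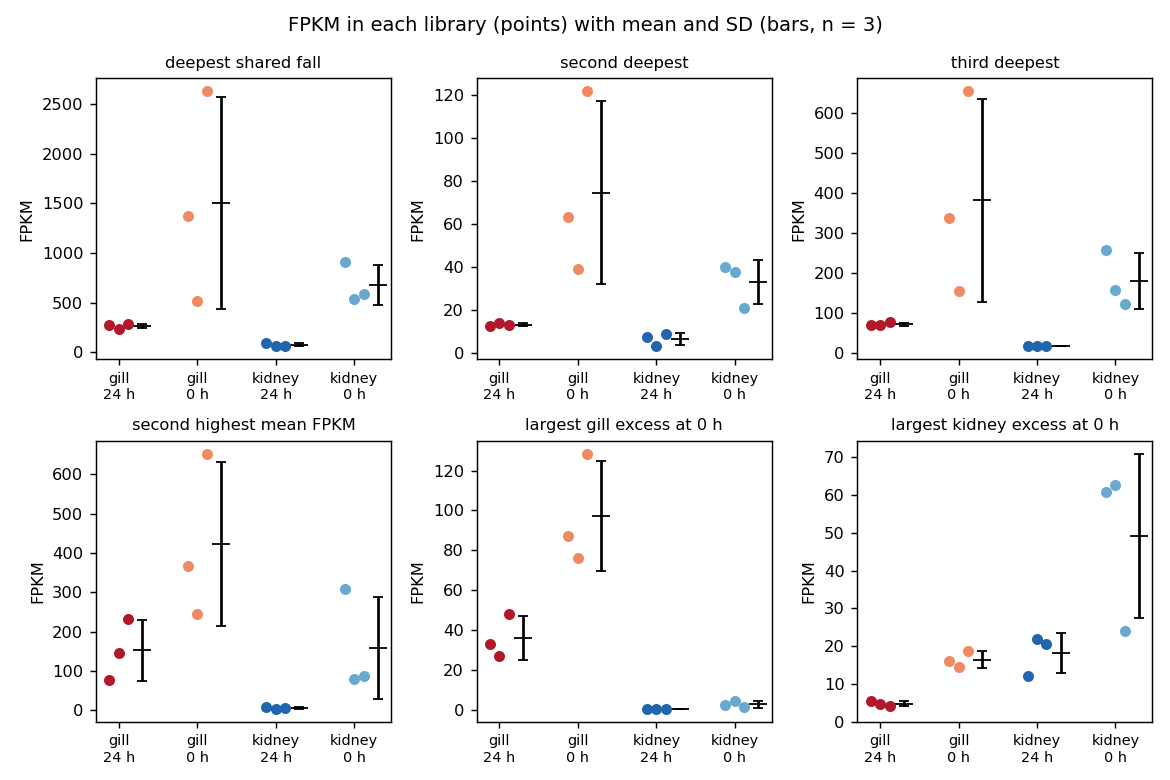
FPKM of 6 of the transcripts in the 12 libraries (points), with the mean and SD of each group (bars, n = 3). Upper row, ranks 1 to 3 by shared fall; lower row, rank 54, rank 102 with the largest gill excess at 0 h and rank 82 with the largest kidney excess at 0 h. In all 6 the points of 24 h lie below those of 0 h in the same tissue.

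The bounds of the rule cut through a continuous range. The transcripts just inside the bound of -1 had gill changes of -1.0005, -1.016 and -1.017 on the log2 scale, and those just outside it, which met every other condition, had -0.997, -0.982 and -0.979. In kidney the nearest values were -1.04, -1.05 and -1.07 inside and -0.98, -0.98 and -0.98 outside. The lowest means inside were 2.13, 2.14 and 2.17 FPKM, and the highest outside were 1.80, 1.66 and 1.59 FPKM. The gap between the highest 24 h and the lowest 0 h library was also narrow for some, with differences as small as -0.005 in gill and -0.016 in kidney on the log2 scale. The highest 24 h library had at most 50% of the FPKM of the lowest 0 h library for 42 transcripts in gill, 60 in kidney and 15 in both. The rule used these values and the share over all transcripts was not computed, so nothing is read from these counts.

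Within the 0 h groups the 141 transcripts varied more than at 24 h, and the same libraries led most of them. The median SD over 3 libraries was 0.26 at 24 h and 0.56 at 0 h in gill, and 0.32 at 24 h and 0.76 at 0 h in kidney, on the log2(FPKM + 1) scale. Over all transcripts with a mean FPKM of 2 or more it was 0.22 at both times in gill, and 0.23 at 24 h and 0.44 at 0 h in kidney. For the 118 transcripts that rose in both tissues by the mirrored rule it was 0.34 at 24 h and 0.30 at 0 h in gill, and 0.42 at 24 h and 0.47 at 0 h in kidney. The rule used these values, and a high library at 0 h helps a transcript to meet the bound on the fall. The wider spread of the 141 at 0 h is therefore a description, and nothing particular to them is read from it.

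Kidney 0 h replicate 1 was the highest kidney library of its time for 122 of the 141 (86.5%), against 36.3% of all transcripts with a mean FPKM of 2 or more. Gill 0 h replicate 3 was the highest of its group for 82 (58.2%, against 28.2%), and gill 0 h replicate 2 was the lowest for 107 (75.9%, against 29.0%). Transcripts that met the rule in 1 tissue only were read in the 0 h libraries of the other tissue. Their failure to meet the rule there was part of the choice. Kidney 0 h replicate 1 was highest for 57.1% of 722 that fell in gill only. Among 353 that fell in kidney only, gill 0 h replicate 3 was highest for 38.8% and replicate 1 for 38.0%, and replicate 2 was lowest for 47.6%. Replicates 3 and 1 thus led these about equally often, unlike in the 141, where gill 0 h replicate 1 was highest for 31.9%. For the 141 the 0 h values were used by the rule, and nothing particular to them is read from their larger shares. Kidney 0 h replicate 1 was highest for 72 of the 82 led by gill 0 h replicate 3. It was also highest for 42 of the 45 led by gill 0 h replicate 1, so no link between the leaders is read. Among the 24 h libraries no library led more than 66 of the 141 in kidney or 61 in gill. The median FPKM of the 141 was 22.4 in kidney 0 h replicate 1, against 8.37 and 8.86 in the other two libraries of that group. Its relative depth, 1.02, and its median over all transcripts, 1.90 FPKM, were within the range of the other libraries. What made these 0 h libraries differ was not tested.

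The falls were recomputed without these libraries. Without kidney 0 h replicate 1 the median kidney change of the 141 was -1.31, and 101 still fell there by 1 or more. Without gill 0 h replicate 3 the median gill change was -1.33, and 117 still fell by 1 or more. Leaving out gill 0 h replicate 2, the lowest, moved the median gill change to -1.71. The smallest remaining falls were -0.44 in kidney without kidney 0 h replicate 1 and -0.66 in gill without gill 0 h replicate 3. A mean that stays lower at 24 h is fixed by the rule, since the groups do not overlap.

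**Figure D4:**
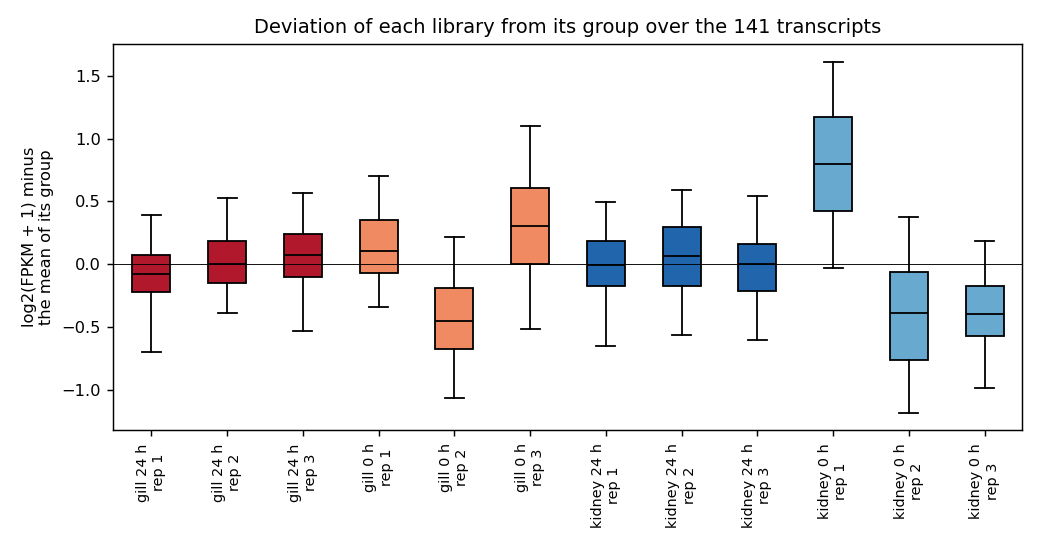
Deviation of each library from the mean of its own group over the 141 transcripts, on the log2(FPKM + 1) scale (box, quartiles; line, median; whiskers, 5th to 95th percentile). The 24 h libraries of both tissues have medians between -0.08 and 0.08, whereas at 0 h gill replicate 2 lies at -0.45, gill replicate 3 at 0.30 and kidney replicate 1 at 0.79.

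Libraries that took no part in the choice were read next. Each library in turn was held out, the rule was applied to the other 11, and the held-out value was set against the 3 libraries of the other time in its tissue. It lay beyond all 3 in the direction of the fall for 87.7% to 93.1% of the chosen transcripts in gill at 24 h and for 78.7% to 95.5% in gill at 0 h. In kidney the shares were 86.3% to 89.1% at 24 h and 75.1% to 95.4% at 0 h. Over all transcripts with a mean FPKM of 2 or more the shares were 24.8% to 29.9% in gill at 24 h, 25% to 29.5% in gill at 0 h, 13.4% to 16.7% in kidney at 24 h and 22.0% to 27.3% in kidney at 0 h. The 3 libraries of the other time had taken part in the choice, which favours the chosen transcripts in this reading.

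Transcripts chosen on the change in 1 tissue were also read in the other. The change in the other tissue had no part in that choice, but its 6 libraries counted towards the mean FPKM of 2 or more. Of the 494 that met the kidney condition, 412 (83.4%) were lower at 24 h in gill, against 46.6% of all transcripts with a mean FPKM of 2 or more, and their median gill change was -0.72 on the log2 scale. Their gill groups did not overlap in the falling direction for 226 (45.7%, against 11.3%), and in the rising direction for 10 (2.02%, against 14.8%). In limma's test 34 (6.88%, against 0.5%) were called as falling in gill and 1 (0.202%, against 0.538%) as rising. All 34 were among the 141. The spread in that test also drew on the kidney libraries that had chosen the transcripts. Of the 863 that met the gill condition, 860 were tested in kidney, where 561 were lower at 24 h (65.2%, against 40.7%), with a median of -0.22. Their kidney groups did not overlap in the falling direction for 206 (23.9%, against 4.4%), and in the rising direction for 31 (3.59%, against 12.2%). Of the 860, 50 (5.81%, against 0.299%) were called as falling in kidney and 1 (0.116%, against 0.773%) as rising. Among the 50 were 46 of the 141, and the gill libraries that chose the transcripts likewise entered the spread. Deviations from group means in gill and kidney libraries with the same replicate number in their titles correlated weakly at 24 h (0.109 to 0.137). At 0 h the correlations were -0.00854 to 0.0915. The tissues may therefore not be wholly separate readings, which was not tested.

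A comparison the rule did not use is that of gill with kidney at each time. Most of the 141 were higher in gill, at 24 h as at 0 h. The median difference, gill minus kidney on the log2(FPKM + 1) scale, was 0.78 at 24 h and 0.75 at 0 h, against -0.09 and 0.01 over all tested transcripts. At an adjusted p under 0.05, limma called 57 of the 141 (40.4%, against 30.7% of all tested) at 24 h and 54 (38.3%, against 29.3%) at 0 h. That fit used 1 spread per transcript for all 4 groups, so the near-equal counts partly reflect this choice. With only the groups compared in the fit, 79 were called at 24 h (26520 over all tested) and 40 at 0 h (17669 over all tested). The calls below are those of the main fit. At 24 h it called 51 of the 141 (36.2%) higher in gill and 6 (4.26%) higher in kidney. Over all 75716 tested transcripts 15.6% were called towards gill and 15.1% towards kidney, and over those with a mean FPKM of 2 or more 17.5% and 16.4%. At 0 h 49 (34.8%) were called higher in gill and 5 (3.55%) higher in kidney, against 17.3% and 12% of all tested, and 18.6% and 13.5% of those with a mean FPKM of 2 or more.

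The tissue difference was called at both times for 43 transcripts (30.5%), against 21.8% of all tested and 25.3% of those with a mean FPKM of 2 or more. All 43 had the same direction at both times, as did 99.7% of such calls over all tested. Of the 43, 40 were higher in gill (28.4% of the 141) and 3 higher in kidney (2.13%). These shares were 12.6% and 9.19% over all tested, and 14.5% and 10.8% over those with a mean FPKM of 2 or more. Another 14 were called at 24 h only, 11 at 0 h only and 73 at neither time. Calls at 1 time only made up 17.7% of the 141. This was near the 16.4% of all tested and the 15.3% of those with a mean FPKM of 2 or more. The sign of the fitted difference changed between times for 25 transcripts (17.7%). This share was 22.9% over all tested and 21.4% over those with a mean FPKM of 2 or more. Each scaling tried kept the excess towards gill, with the gill mean higher for 113 to 120 of the 141 at 24 h and for 95 to 101 at 0 h. Quantile normalization moved the median difference of all tested transcripts at 0 h to -0.10 and that of the 141 to 0.61.

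The largest gill excess at 0 h belonged to rank 102. It had 32.9, 26.9 and 48.2 FPKM in gill and 0.426, 0.533 and 0.5001 FPKM in kidney at 24 h. At 0 h it had 87.45, 76.1 and 128 FPKM in gill and 2.23, 4.61 and 1.28 FPKM in kidney. Its gill libraries exceeded all kidney libraries at both times, by 4.60 at 24 h (SE 0.32; limma adjusted p = 7.05e-07) and by 4.79 at 0 h (SE 0.32; limma adjusted p = 5.1e-07) on the log2 scale. Rank 40 followed, with 61.8, 62.3 and 90.5 FPKM in gill and 2.00, 1.65 and 0.721 FPKM in kidney at 24 h. Its difference was 4.90 at 24 h (SE 0.62; limma adjusted p = 9.38e-05) and 3.91 at 0 h (SE 0.62; limma adjusted p = 0.000519).

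Rank 33, the third, differed by 2.76 at 24 h (limma adjusted p = 0.0249) and by 3.54 at 0 h (limma adjusted p = 0.00673), and was listed at 0 in 2 of the kidney libraries of 24 h.

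Fewer transcripts stood higher in kidney. Rank 82 had 5.41, 4.66 and 4.29 FPKM in gill and 12.1, 21.95 and 20.7 FPKM in kidney at 24 h. At 0 h it had 16.0, 14.6 and 18.8 FPKM in gill and 60.9, 62.6 and 24.1 FPKM in kidney. The difference was -1.70 at 24 h (SE 0.33; limma adjusted p = 0.00197) and -1.41 at 0 h (SE 0.33; limma adjusted p = 0.00645), with no overlap between the tissues at either time. Rank 15 behaved alike, with -1.79 at 24 h (limma adjusted p = 0.00144) and -1.34 at 0 h (limma adjusted p = 0.00883). Rank 70, with the third largest kidney excess at 0 h, was not called (-1.32; limma adjusted p = 0.072).

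Both transcripts given by ID were called between tissues at 24 h and missed the threshold at 0 h. TRINITY_DN26563_c1_g1_i1_3 was higher in gill by 1.78 at 24 h (SE 0.44; limma adjusted p = 0.00911), and its difference at 0 h was 0.89 (SE 0.44; limma adjusted p = 0.164). The value at 0 h was 1.52 (limma adjusted p = 0.00293) without gill 0 h replicate 2 and 0.34 (limma adjusted p = 0.552) without gill 0 h replicate 3, which were the ends of its range over all alternatives. TRINITY_DN27698_c0_g1_i4_1 was higher in gill by 4.37 at 24 h (SE 0.56; limma adjusted p = 9.29e-05), with a difference of 1.58 at 0 h (SE 0.56; limma adjusted p = 0.0517). That last adjusted p fell under the threshold without gill 24 h replicate 1 (0.0439), gill 24 h replicate 3 (0.0495), gill 0 h replicate 2 (0.0426) or kidney 0 h replicate 1 (0.00689), and over all alternatives it ranged from 0.00689 to 0.184.

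**Figure D5:**
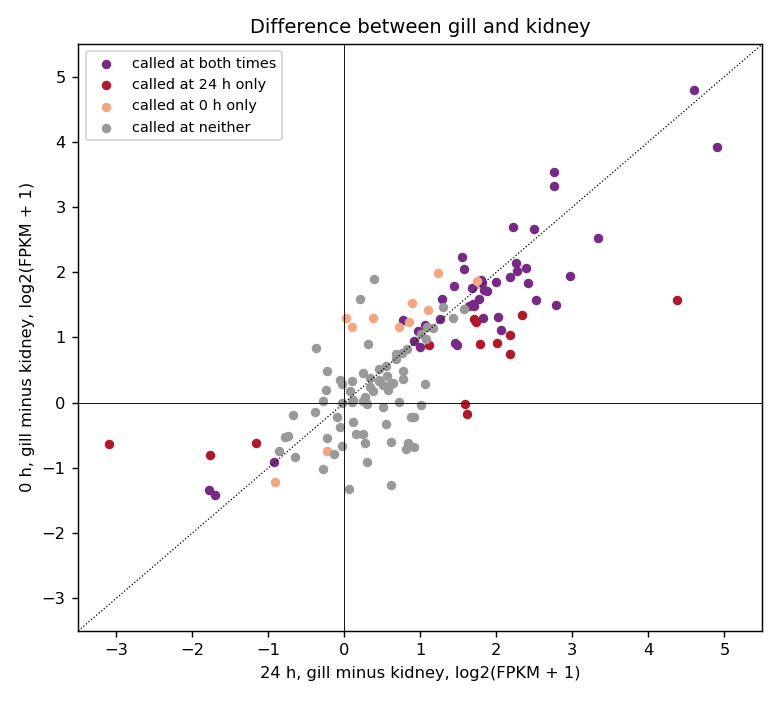
Difference between gill and kidney of each of the 141 transcripts, gill minus kidney on the log2(FPKM + 1) scale, at 24 h (horizontal axis) and 0 h (vertical axis); colours show at which times limma called it, and the dotted line marks equal differences. Most points lie above 0 on both axes, and the 43 called at both times have the same sign on both.

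The fall was deeper in kidney for 84 of the 141 and deeper in gill for 57. These counts include kidney 0 h replicate 1, without which the median change was -1.31 in kidney, against -1.51 in gill. The changes differed by 0.5 or less on the log2 scale for 85 transcripts. The kidney fall was deeper by 1 or more for 18, and the gill fall for 6. Limma called the difference between the changes for none of the 141 at an adjusted p under 0.05, while over all tested transcripts it called 38 (0.0502%). Since both falls chose the transcripts, the count is a description. The largest excess of the kidney fall was that of TRINITY_DN27698_c0_g1_i4_1, at -2.79 (SE 0.79; limma adjusted p = 0.296). It was followed by rank 74 with -1.87 (limma adjusted p = 0.466) and rank 91 with -1.78 (limma adjusted p = 0.457). In the other direction rank 89 led with 2.46 (SE 0.57, limma adjusted p = 0.195). Rank 11 followed with 1.504 (limma adjusted p = 0.803) and rank 51 with 1.375 (limma adjusted p = 0.717).

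Rank 74 was the second by the excess of the kidney fall. In gill it had 3.18, 4.99 and 5.89 FPKM at 24 h, against 18.3, 7.46 and 16.5 FPKM at 0 h. In kidney it had 2.68, 3.51 and 1.93 FPKM at 24 h, against 84.2, 18.9 and 22.1 FPKM at 0 h. The tissues overlapped at 24 h, while at 0 h every kidney library was above every gill library and kidney 0 h replicate 1 was the highest by a wide margin. Its difference between tissues was not called at either time (limma adjusted p = 0.4 at 24 h and 0.079 at 0 h).

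The IDs are in the style of the Trinity assembler. They hold a DN number and c, g and i parts, and end in 1 of 4 numbers that no label explains. In Trinity IDs, DN with c names a read cluster, g a gene and i an isoform. Component is used here for transcripts that share a DN number, so it can join different read clusters. Of the 141, 18 ended in 1, 42 in 2, 51 in 3 and 30 in 4. These are 12.8%, 29.8%, 36.2% and 21.3%, against 25.9%, 22.9%, 26.1% and 25% of all transcripts with a mean FPKM of 2 or more. By final number the median changes lay between -1.26 and -1.60 in gill, and between -1.52 and -1.73 in kidney.

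The 141 came from 135 components of the same final number, 6 of which held 2 of them, and no DN number was shared by members with different final numbers. Rank 1 and rank 12 shared a component, and the FPKM of rank 1 was 7.26 to 11.3 times that of rank 12 in all 12 libraries (r = 0.993 over the 12 libraries on the log2 scale, which include the falls that chose both). Ranks 11 and 51 likewise moved together (r = 0.985). In gill rank 11 had under 0.01, 0.9905 and 13.3 FPKM at 24 h, against 30.5, 29.5 and 41.0 FPKM at 0 h, and rank 51 had 0.402, 2.45 and 9.995 FPKM at 24 h, against 24.97, 30.6 and 25.2 FPKM at 0 h. In both, gill 24 h replicate 3 was the highest of its group. The other 4 components with 2 of the transcripts gave r = 0.78 to 0.973. The 2 transcripts of each pair differed in the c or g part of the ID, so the assembler set them down as separate genes. They may still be pieces of 1 gene, which was not tested, so the 141 need not stand for 141 genes.

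Other transcripts of these components were read as well, with the 141 themselves left out, so that any that met the rule are not in these counts. Of 164 tested transcripts with the same DN and final number as one of the 141, 58 (35.4%) were lower at 24 h in both tissues and 5 (3.05%) by 1 or more in both. Of the 388 with the same DN number and another final number, 82 (21.1%) were lower in both and 0 by 1 or more. Over all tested transcripts outside the 141, 20.9% were lower in both and 0.192% by 1 or more. Median changes of the 164 were -0.06 in gill and 0.02 in kidney.

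In the fit across all transcripts, limma called 34 of the 141 as falling in gill and 46 in kidney, 18 of them in both, at an adjusted p under 0.05. Falling calls made up 0.433% of all tested transcripts in gill and 0.201% in kidney. The rule used these contrasts, so nothing is read from the counts. The counts changed when single libraries were left out, as did the calls in either direction over all tested transcripts. For gill, the count of 34 stood beside 642 calls over all tested transcripts. Leaving out a gill library of 24 h gave 7 of 214 (replicate 1), 9 of 163 (replicate 2) and 17 of 312 (replicate 3). Leaving out gill 0 h replicate 1 gave 10 of 218, and replicate 3 gave 7 of 164. The gill count was 54 of 585 when kidney 0 h replicate 1 was left out and 55 of 1648 when replicate 2 was. For kidney, the count of 46 stood beside 624 calls. Leaving out a kidney library of 24 h gave 21 of 302 (replicate 1), 12 of 126 (replicate 2) and 18 of 262 (replicate 3). It was 26 of 492 when kidney 0 h replicate 1 was left out and 78 of 2073 when replicate 2 was. Leaving out a gill library of 24 h gave 30 of 371 (replicate 1), 28 of 377 (replicate 2) and 26 of 352 (replicate 3) in kidney, and leaving out gill 0 h replicate 1 gave 23 of 331.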

How the data were processed

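The authors deposited FPKM values for 84875 transcripts in 12 libraries, 1 column per library, per the file headers. Per the labels' protocols TRIzol was used for extraction. Trimmomatic, which trims reads, is listed per the submitters' processing notes. Assembler, aligner, counter and build are items not given in the sources used here, and read depth is unknown. Because the values are not counts, tests used limma 3.58.1 in R 4.3.3 (4 group means fitted to 12 libraries, mean-variance trend, Benjamini-Hochberg adjustment, two-sided) on log2(FPKM + 1), a scale that understates changes of low transcripts. The 75716 transcripts at 1 FPKM or more in at least 3 libraries were tested, also when a library was left out. The code was tested on simulated data. The 2 transcripts given by ID are those with the deepest shared fall and the next highest mean. Others are described by rank: the 10 deepest shared falls, the 5 highest means, the 3 largest tissue differences at 0 h and differences between changes in each direction. Pairs sharing a component were added after their values were seen. The rule, the transcripts and the comparisons were chosen with earlier results of these data known. The labels do not say whether the replicate numbers in the titles pair gill and kidney libraries. After subtraction of group means, same-numbered gill and kidney libraries correlated at 0.137, 0.111 and 0.109 at 24 h. At 0 h they correlated at 0.0915, -0.00854 and 0.0345. The values at 24 h are at most a weak hint of such pairs. The column names number the third libraries 4, except that of kidney at 24 h, which has 3, so by column name the third pair at 24 h does not share a number. Alternatives covered the pseudocount, filter, scaling, weights, blocks and single libraries.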

Additional observations from a re-analysis of the deposited data

How the results depend on the processing

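A bound of 0.5 in place of 1 on the log2 scale gave 356 transcripts and a bound of 1.5 gave 53; the other planned bounds, pseudocount and scalings gave 104 to 200, and leaving out single libraries 109 to 207. Median-ratio scaling moved the median kidney change of all tested transcripts from 0.10 to -0.01 and that of the 141 to -1.79. The counts called between gill and kidney stayed within 1.5 times of 57 at 24 h and 54 at 0 h under every alternative. With only the groups compared in the fit they were 79 at 24 h and 40 at 0 h. Without single libraries they were 45 to 68 at 24 h and 41 to 71 at 0 h. Calls over all tested transcripts then ranged from 19010 to 27931 at 24 h, against 23262 with all libraries. At 0 h they ranged from 18185 to 24918, against 22199. The replicate block within time, chosen after the data were seen, gave 64 at each time (21484 at 24 h and 20453 at 0 h over all tested). It changed no call of the 2 transcripts given by ID. The difference between the changes was called for 0 of the 141 under every alternative run, while calls over all tested transcripts ranged from 0 to 452.

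Of the 141, the counts called as falling were 18 in gill with a pseudocount of 0.1 (219 calls over all tested transcripts, against 642), 10 in gill and 1 in kidney with only the groups compared in the fit (250 and 13 over all tested), and 76 and 86 with library weights (2208 and 1486). With the replicate block, which joins the 4 libraries of a title number, 21 were called in gill and 27 in kidney (350 and 306 over all tested), and the adjusted p of TRINITY_DN27698_c0_g1_i4_1 between tissues at 0 h was 0.0486 (limma); with the replicate block by library name number, from the column names, 9 and 1 (134 and 23). Deviations of same-numbered libraries of 24 h and 0 h within a tissue correlated at -0.0493 to 0.0797. Without single libraries the counts were 7 to 55 (gill) and 12 to 78 (kidney). The causes were not tested. Of transcripts sharing a DN number, 140 of 552 were lower in both tissues; keeping only those with the same final number, a choice made after the IDs were seen, gave 58 of 164. Unknown read totals limit what can be said of the lowest levels.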
